A study of Mus musculus with 6 samples.

Results

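Of the 52535 genes in the comparison of Npm1 siRNA with control siRNA in mouse embryonic stem cells, 10 listed as polyadenylated histone variant genes are described here. They were chosen as a named family by gene symbol, and no measured value enters that rule. They are H2afx, H2afz, H2afv, H2afy, H2afy2 and H2afj of the H2A family, H3f3a, H3f3b and Cenpa of the H3 family, and the linker histone gene H1f0. Each symbol matched 1 row, and all 10 passed the filter on low levels (a mean of at least 10), which 14284 genes passed in all.

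The RNA came from E14 cells, an established line of mouse embryonic stem cells grown without serum in N2B27 medium to which leukaemia inhibitory factor (LIF) and the inhibitor pair called 2i were added. One group, with the genotype given as WT, received a control siRNA, and the other, labelled NPM1 knockdown, received an siRNA targeting NPM1. Both were collected 3 days after transfection, with 3 samples in each group, and both used 1 parental line. Npm1 encodes nucleophosmin, an abundant nucleolar protein that also binds histones as a chaperone, and the series title asks about repressive chromatin once this nucleolar layer is lost. RNA was selected for poly(A) tails before stranded libraries were made. The deposited values are 1 mean, 1 log2 fold change and 1 p per gene over all 6 libraries, so no value per sample and no SD can be given. Errors are 95% intervals from the standard error that each fold change and p imply. The labels do not say whether samples were separate cultures, so each p-value covers the spread among these samples and nothing wider, and that spread may be technical.

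Histones package DNA into nucleosomes. Most are made in S phase from clustered genes without introns, whose messages end in a conserved stem-loop in place of a poly(A) tail. Variant histones come from separate genes that are mostly transcribed through the whole cell cycle into ordinary polyadenylated messages, and dedicated chaperones place them at particular sites. H3.3 (from H3f3a and H3f3b) marks active genes and also telomeres and silenced repeats in embryonic stem cells. H2A.Z (H2afz, H2afv) sits beside promoters, macroH2A (H2afy, H2afy2) in repressed chromatin, and CENP-A (Cenpa) at centromeres.

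Poly(A) selection captures messages with a poly(A) tail, so sequences at the 3′ ends are shown first. The histone stem-loop was searched for as 16 bases that start with GG, end with CC and hold TTNTNA at the centre, with all 6 base pairs of the stem matched, on the transcribed strand only, in the first 150 bases after the stop codon of each coding transcript annotated by GENCODE on GRCm38. It was found in H2afx, in none of the other 9 variants, in 46 of 67 replication histone genes, and in 0.231% of all 21674 protein-coding genes. Some replication histone transcripts are annotated as short, such as Hist1h4k at 312 bases and Hist1h2bl at 381. A stem-loop past the annotated end could not be found. The H2afx copy lies on chromosome 9 and begins at base 47 after the stop codon. Copies from Hist1h4i and Hist1h1c, the 2 stem-loop replication histones with a mean of at least 10, are given for comparison. Capitals mark the 16 bases of the stem-loop, and the coordinates are those of the printed stretch on GRCm38.
H2afx, chr9:44335235-44335260, plus strand: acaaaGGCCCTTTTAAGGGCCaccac
Hist1h4i, chr13:22040961-22040986, minus strand: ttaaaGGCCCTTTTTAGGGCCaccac
Hist1h1c, chr13:23739507-23739532, plus strand: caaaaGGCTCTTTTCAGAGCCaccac

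The annotated H2afx message runs on for 822 bases past its stem-loop and ends 29 bases after a polyadenylation signal. Replication histone messages can also be annotated past the stem-loop, by 840 bases in Hist1h1c and 330 in Hist1h4i. A signal (AATAAA or ATTAAA, transcribed strand, last 40 bases of the longest coding transcript) was found in 8 of the 10 variant genes, against 25.4% of the replication histone genes and 70.7% of all protein-coding genes. The short annotated transcripts of some replication histone genes limit this search too. H2afy and H3f3b had neither hexamer in this window. In H2afy2 the hexamer followed a run of A and ended 1 base before the annotated transcript end. In the others that distance was 16 to 29 bases, so the H2afy2 hexamer is a weaker case. Examples follow, with the signal in capitals.
H2afx, chr9:44336031-44336060, plus strand: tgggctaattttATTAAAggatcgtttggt
H2afz, chr3:137866885-137866914, plus strand: ctctgcttactaATTAAAcagtgcatctgt
H2afj, chr6:136810039-136810068, plus strand: gcaaaaaggacaAATAAAgaatatattaca
H3f3a, chr1:180800836-180800865, minus strand: aatttgaaaaatAATAAAagtaccaataga

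Gene structure divided the variants in another way. H2afx, H2afj and H1f0 consist of 1 exon, as do 92.5% of the replication histone genes, and the other 7 variants have 4 to 9 exons. H2afx therefore shares both the single exon and the stem-loop with the replication class, and the polyadenylation signal with the variants. The 3′ untranslated regions of the variants ran from 475 bases in H2afz to 2245 in H3f3a.

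The libraries held far more variant than replication histone RNA. Per kilobase of the longest coding transcript, the means summed to 26409 normalized counts over the 10 variants and to 243 over 67 replication histone genes, a ratio of 109. Of 70 replication histone rows, 32 were listed at 0 and 4 reached a mean of 10, namely Hist1h2bc, Hist1h4i, Hist1h1c and Hist2h2be. These rows were taken by symbol (Hist1h to Hist4h) and include pseudogenes such as Hist1h2aj and Hist3h2bb-ps, both listed at 0. Of the 67 protein-coding genes with a length, 30 were at 0. H2afx stood at 1954 per kilobase, 23.2 times the level of 84.1 of Hist1h2bc, the replication histone with the highest value. Of the 46 replication histone genes with a stem-loop, 17 were listed at 0. Replication histone genes are near copies of each other, and a median of 37.1% of their 100-base windows, the read length, occurred exactly in another annotated gene. How reads with several matches were counted is not given in the sources used here, so their part in these low values was not tested. The part of the 3′ ends in the difference between the classes was not tested either.

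**Figure D1:**
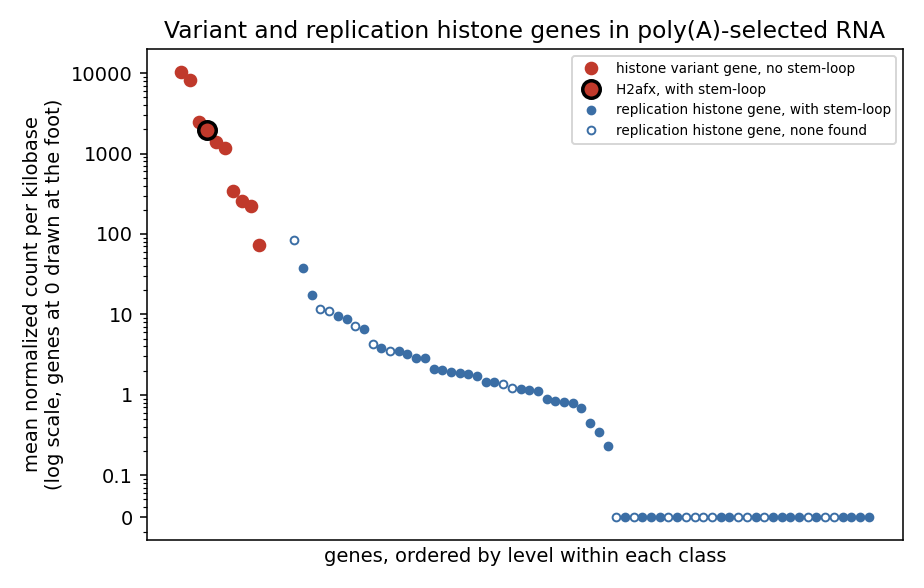
Mean normalized count per kilobase over all 6 libraries (log scale, genes at 0 drawn at the foot) for the 10 variant genes (red) and 67 replication histone genes (blue), ordered within each class; filled blue points hold the stem-loop. H2afx stands at 1954, and the replication histone genes with a stem-loop lie at or under 37.6.

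Levels among the variants spanned a wide range. H3f3b was highest at 10386 normalized counts per kilobase, above 99.1% of tested genes with an annotated length, and H2afz followed at 8187. H2afy (2439), H2afx (1954), Cenpa (1393) and H2afv (1158) formed a middle group on the same per-kilobase scale. H3f3a (344), H2afy2 (254) and H1f0 (222) were lower, and H2afj was lowest at 73.1. With no value per sample, the spread behind this order is unknown. The order depended on the length used. With the union of exons 4 genes changed places (H2afy, H2afx, Cenpa and H2afv). H2afy then stood at 733 and Cenpa at 348, beside H3f3a at 279, so the middle group did not hold with that length. With the principal transcript H3f3a rose to 1348 and passed H2afv.

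**Figure D2:**
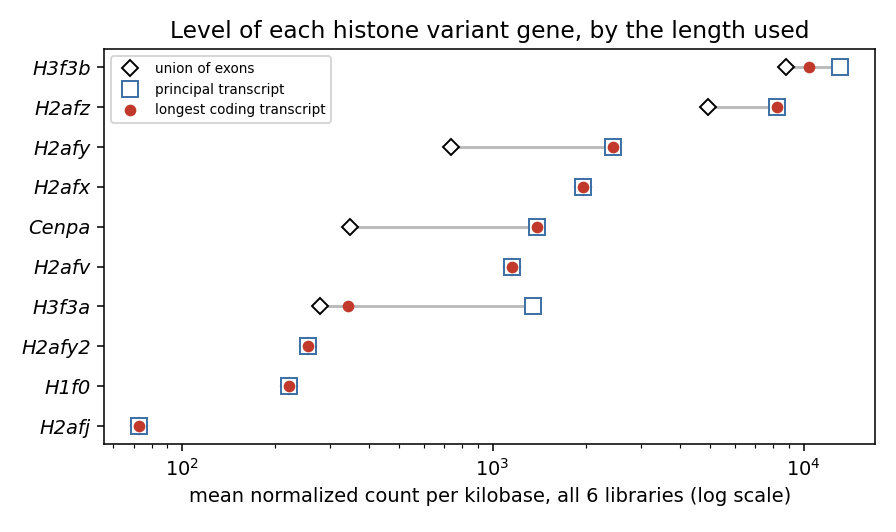
Mean normalized count per kilobase over all 6 libraries (log scale) of each variant gene, with length taken as the longest coding transcript (red), the principal transcript (squares) or the union of exons (diamonds). H3f3b and H2afz lead with each length, and H3f3a moves from 344 to 1348 with the principal transcript.

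None of the 10 variant genes was called higher or lower after Npm1 siRNA at a Benjamini-Hochberg adjusted p under 0.05, where 4.30% of tested genes were (2.23% higher and 2.07% lower). By the authors' deposited table, 1 of the 10, H2afx, had p under 0.05 before adjustment, as did 16.3% of all tested genes. The 10 log2 fold changes lay between -0.08 and 0.25 in the authors' deposited table, 5 positive and 5 negative. Their median was 0.00018, beside 0.0019 over all genes tested. In the same comparison Npm1 was at 45.3% of its control level by the authors' deposited table, a log2 value of -1.14 (adjusted p = 5.35e-49, 95% interval -1.29 to -0.996). The table's header does not state which group is the numerator, and every direction given here was read from the negative sign of Npm1. As in any bulk sample, fewer cells of a type and less RNA per cell cannot be told apart.

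**Figure D3:**
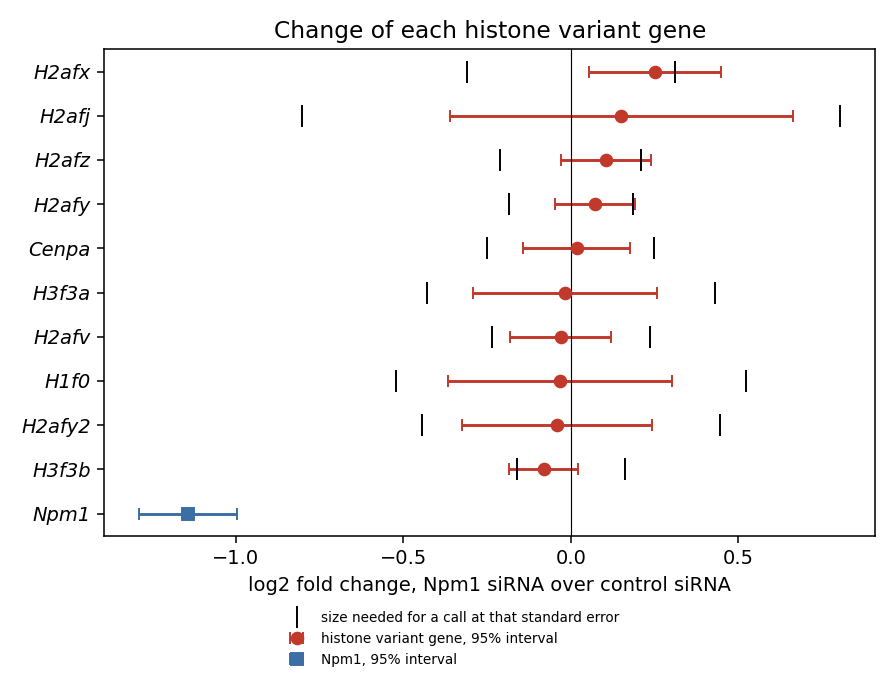
Log2 fold change, Npm1 siRNA over control siRNA, of each variant gene (red) and of Npm1 (blue), with 95% intervals; black ticks mark the size at which that gene would have been called. Every red point lies inside its ticks, and the H2afx interval, from 0.05 to 0.45, is the only one of the 10 that leaves out 0.

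H2afx encodes H2A.X, the variant that is phosphorylated around DNA breaks. It lies on chromosome 9 from 44334694 to 44336077 (GRCm38, plus strand). Its level was about 2469 normalized counts in control and 2939 after Npm1 siRNA (approximate levels, computed for each gene from the deposited mean and ratio). That is a log2 fold change of 0.25 in the authors' deposited table, with a 95% interval of 0.05 to 0.45 and an adjusted p of 0.149, short of a call. A log2 change of 0.31 would have been needed at this gene's standard error of 0.10. H2afx had the highest GC content of the 10 messages, at 62.3%. Its log2 value was 0.12 (adjusted p = 0.652) after a trend of fold change with transcript length and GC content had been taken out. The part of GC content or length in the change of this gene was not tested.

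H2afj encodes H2A.J, a mammalian H2A variant that differs from canonical H2A mainly at its C-terminal tail. Among the 10 variants described here it was the least abundant and the one measured least precisely. The level was about 127 normalized counts in control and 141 after Npm1 siRNA. The authors' deposited table gave it a log2 fold change of 0.15 (adjusted p = 0.861, with a 95% interval of -0.36 to 0.66), and a fold of 1.74 would have been needed for a call.

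The H2A.Z genes encode nearly identical proteins. H2afz (chromosome 3, 137864487 to 137866922) stood at about 8433 normalized counts in control and 9071 after Npm1 siRNA. The authors' deposited table gave it a log2 fold change of 0.11 (adjusted p = 0.484, with a 95% interval of -0.03 to 0.24). H2afv (chromosome 11, 6427229 to 6444443) stood at about 1910 and 1870, and its log2 fold change in the authors' deposited table was -0.03 (adjusted p = 0.913, 95% interval -0.18 to 0.12). Neither passed the test. H2afz supplied 87.1% of H2A.Z RNA per kilobase in control and 88.1% after Npm1 siRNA, or 80.2% and 81.7% with the union of exons as length. The H2afz values could share reads with other genes: 58.8% of its 100-base windows also occur in an annotated transcript of Tmcc1, whose row had a mean of 584 normalized counts over the whole gene. No window of H2afv occurred in another annotated gene.

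H3f3a and H3f3b encode the same H3.3 protein from messages that differ in sequence. H3f3b (chromosome 11, 116021912 to 116027962) stood at about 26844 normalized counts in control and 25375 after Npm1 siRNA. The authors' deposited table gave it a log2 fold change of -0.08 (adjusted p = 0.472, with a 95% interval of -0.18 to 0.02). This was the tightest interval of the 10, and a fold of 1.12 would have been called. H3f3a (chromosome 1, 180800832 to 180813943) stood at about 982 and 971, and its log2 fold change in the authors' deposited table was -0.02 (adjusted p = 0.981, 95% interval -0.29 to 0.26).

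H3f3b stood 30.2 times above H3f3a per kilobase of the longest coding transcript, beside ratios of 9.59 within the macroH2A pair and 7.07 within the H2A.Z pair. Per kilobase of the principal transcript the H3.3 ratio was 9.72, close to that of macroH2A. With the union of exons it was 31.5, beside 2.88 for macroH2A and 4.26 for H2A.Z. The H3.3 pair had the highest ratio with each length, but the size of its lead depended on the length used. Part of the H3f3a message also occurs in other annotated genes. Of the 100-base windows of its longest coding transcript, 26.3% did so, 7.73% in processed pseudogenes, against 2.44% for H3f3b. For its shorter principal transcript the shares were 52.2% in any other gene and 33.9% in the 13 processed pseudogenes. An antisense gene, H3f3aos, and a noncoding gene, Gm17275, overlap H3f3a on the opposite strand. Windows were matched on either strand, and 19.9% of those of the longest coding transcript occurred in Gm17275. Whether strand was used in counting is not given in the sources used here. The level of H3f3a is therefore uncertain, and the part of shared reads in it was not tested.

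MacroH2A carries a large non-histone domain and is enriched on the inactive X chromosome and other silent regions. H2afy, for macroH2A1 (chromosome 13, 56073619 to 56136361), stood at about 4864 normalized counts in control and 5115 after Npm1 siRNA. The authors' deposited table gave it a log2 fold change of 0.07 (adjusted p = 0.629, with a 95% interval of -0.05 to 0.19). H2afy2, for macroH2A2 (chromosome 10, 61738665 to 61784147), stood at about 561 and 545, and its log2 fold change in the authors' deposited table was -0.04 (adjusted p = 0.937, 95% interval -0.33 to 0.24). Neither passed the test, and H2afy made up 90.2% of macroH2A RNA per kilobase in control and 90.9% after Npm1 siRNA. Those shares use the longest coding transcript, and with the union of exons they were 73.5% and 75.0%.

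Cenpa, whose product replaces H3 in centromeric nucleosomes, lies on chromosome 5 from 30666777 to 30674830. It stood at about 2030 normalized counts in control and 2054 after Npm1 siRNA. The log2 fold change was 0.02 in the authors' deposited table, with a 95% interval of -0.14 to 0.18 (adjusted p = 0.959). H1f0, for the linker histone H1.0 that accumulates in differentiated and resting cells, lies on chromosome 15 from 79028450 to 79030504. It stood at about 461 and 450, and its log2 fold change in the authors' deposited table was -0.03 (adjusted p = 0.965, 95% interval -0.37 to 0.30).

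A missed call does not show that levels were equal, and the intervals give the sizes of change left for each gene. Expressed as a share of the control level, the 95% interval ran from 88.1% to 101% for H3f3b, from 98.0% to 118% for H2afz and from 90.6% to 113% for Cenpa. It was wider for H1f0, at 77.6% to 123%, and widest for H2afj, at 77.8% to 158%. Every one of these intervals lay above that of Npm1, whose highest bound was -0.996 on the log2 scale.

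**Figure D4:**
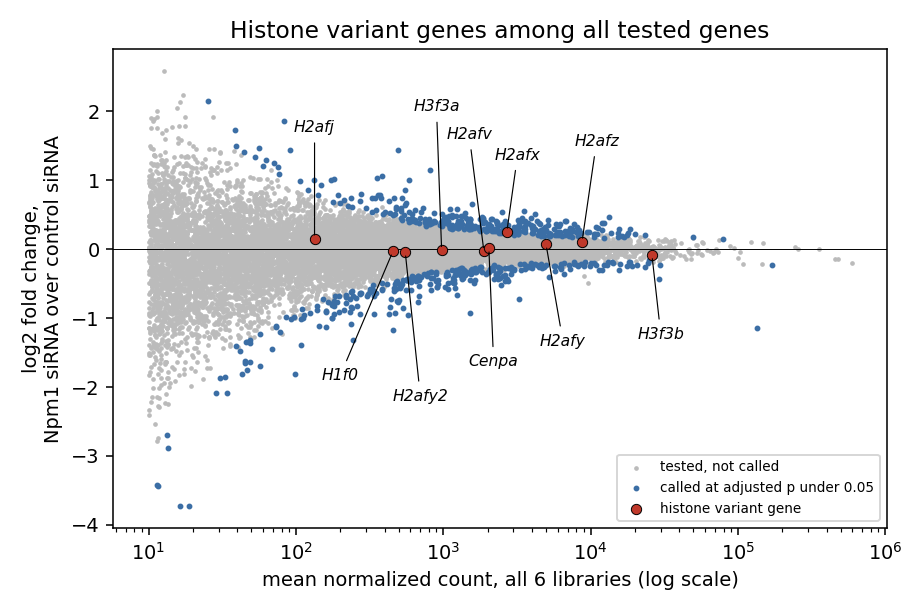
Log2 fold change, Npm1 siRNA over control siRNA, against mean normalized count over all 6 libraries (log scale) for the 14284 tested genes, with called genes in blue and the 10 variant genes in red. The variants lie within the grey band, between -0.08 and 0.25.

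The proteins that handle these variants were followed through lists. Of 12 factors that deposit H3.3 or CENP-A, none was called, with a median log2 fold change of 0.04 beside 0.0019 over all genes tested, and none had an unadjusted p under 0.05. Atrx, the remodeller that places H3.3 in heterochromatin with Daxx, was at 0.12 on the log2 scale of the authors' deposited table (adjusted p = 0.424). Dek, an H3.3 chaperone, was at 0.03 there (adjusted p = 0.908, the authors' deposited table).

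Of 16 members of the complexes that exchange H2A.Z, 1 was called higher, none lower and 15 did not pass (median 0.06), and 5 had p under 0.05 before adjustment. Over all genes tested 4.30% were called, so 1 of 16 is near the background, and 16.3% had p under 0.05. Ino80, the ATPase of the complex that can remove H2A.Z, rose by a factor of 1.22 (adjusted p = 0.00359), with a log2 value of 0.28 in the authors' deposited table and a 95% interval of 0.15 to 0.42. Of 18 replication-coupled and general histone chaperones, none was called, and 4 had an unadjusted p under 0.05 (median 0.0069). The 2 most abundant, Set and Nap1l1, were at -0.03 (adjusted p = 0.869) and 0.11 (adjusted p = 0.416) on the log2 scale of the authors' deposited table.

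Of 17 genes for the 3′ end processing of histone messages, 2 were called higher, none lower and 15 did not pass (median 0.08), and 5 had p under 0.05 before adjustment, beside 2.23% called higher and 16.3% under 0.05 over all genes tested. Srrt, which encodes the Ars2 protein that joins the cap-binding complex, rose by a factor of 1.18 (adjusted p = 0.00214), with a log2 value of 0.24 in the authors' deposited table and a 95% interval of 0.13 to 0.36. Cpsf1, a subunit of the cleavage and polyadenylation complex, rose by a factor of 1.16 (adjusted p = 0.0255), with a log2 value of 0.22 in the authors' deposited table and a 95% interval of 0.09 to 0.35. It was no longer called once the length and GC trend was subtracted (log2 0.14, adjusted p = 0.268). Both act on messages at large and not on histone messages alone.

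Of 17 measured genes for centromere proteins that bind or flank CENP-A, none was called and 2 had an unadjusted p under 0.05 (median -0.0085). Cenpc1, which binds the CENP-A nucleosome, was at 0.16 (adjusted p = 0.306), and Cenph, an inner kinetochore protein, at -0.14 (adjusted p = 0.578), on the log2 scale of the authors' deposited table. Of 14 genes that write or erase H2A.X phosphorylation or act in signalling with it, 1 was called higher, 1 lower and 12 did not pass (median -0.07). Before adjustment 5 had p under 0.05. Over all genes tested 4.30% were called in either direction and 16.3% had p under 0.05. Atr, a kinase that phosphorylates H2A.X at stalled replication forks, fell to 82.3% of its control level (adjusted p = 0.0214), with a log2 value of -0.28 in the authors' deposited table and a 95% interval of -0.44 to -0.12. Eya1, a developmental regulator whose family can remove the tyrosine phosphate from H2A.X, rose by a factor of 1.23 (adjusted p = 0.0212), with a log2 value of 0.30 in the authors' deposited table and a 95% interval of 0.13 to 0.46.

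**Figure D5:**
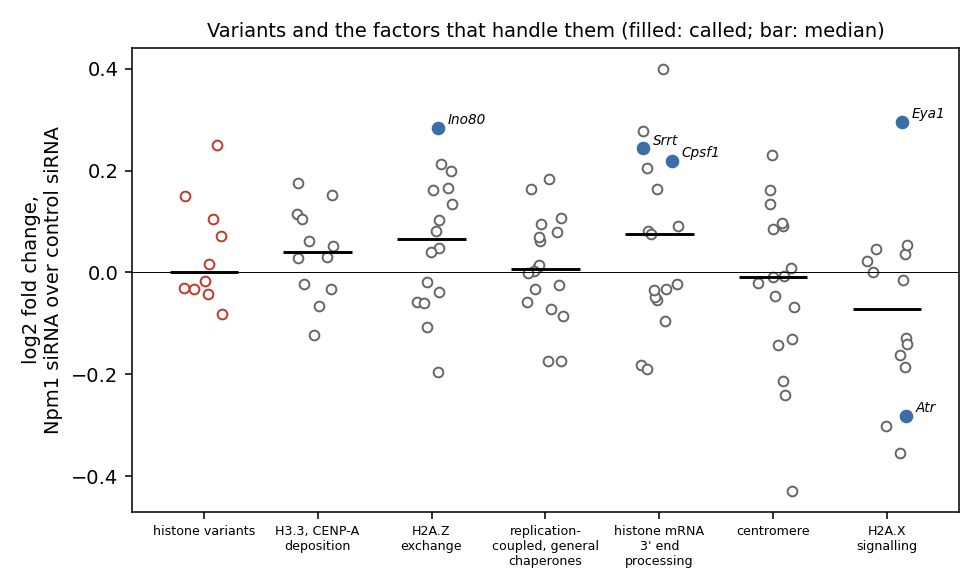
Log2 fold change, Npm1 siRNA over control siRNA, of the tested genes of 7 lists (filled blue: called; black bars: medians). The 10 variants hold no filled point, and the 5 called genes are Ino80, Srrt, Cpsf1, Eya1 and Atr.

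Among the remaining histone genes, the 4 replication histones with a mean of at least 10 gave no call. On the log2 scale of the authors' deposited table, Hist1h2bc was at 0.58 (adjusted p = 0.310, 95% interval -0.00334 to 1.16). Hist1h4i was at 0.61 in the authors' deposited table (adjusted p = 0.662, 95% interval -0.45 to 1.67). The other two, Hist1h1c and Hist2h2be, were at -0.000416 and -0.08 (adjusted p = 0.985 for the latter) by the authors' deposited table. The linker variant H1fx, the only 1 of 17 other variant histone genes above the filter, was at 0.05 on the log2 scale of the authors' deposited table (adjusted p = 0.966).

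Marker genes went with the label of the cells. All 10 embryonic stem cell markers passed the filter, with means from 1313 to 23793 normalized counts, and 8 fibroblast markers, which a feeder layer would bring, summed to 112, with 1 at 0. Utf1, the marker called, rose by a factor of 1.39 (adjusted p = 0.00332), or 0.48 on the log2 scale of the authors' deposited table. It was no longer called with the length and GC trend subtracted (log2 0.33, adjusted p = 0.0987). None of the 3 fibroblast markers above the filter was called, with log2 values in the authors' deposited table of -0.19 for Fbn1 (adjusted p = 0.878) and -0.72 for Col1a1 (adjusted p = 0.681).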

How the data were processed

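RNA was measured in 6 samples, grouped by title. FastQC, Trimmomatic 0.36, STAR, DESeq2 and the build GRCm38 (mm10) are named in the submitters' processing notes. The sources used here do not give the counting method, annotation or model settings. The authors deposited 1 table with 3 values per gene. The deposited mean, headed baseMean, is a signal value and is called the mean normalized count here. It was taken as read counts scaled per library and averaged over all 6 libraries, which the header does not spell out. The deposited log2 fold change and unadjusted p-value come from the authors' model. Depth per library is unknown.

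Benjamini-Hochberg adjustment (statsmodels 0.14.6) was applied to the deposited p-values of the 14284 genes whose mean reached 10, and genes under 0.05 were called. The standard error is the log2 fold change over the normal quantile of its p (scipy 1.17.1), which holds exactly only if the authors used a Wald test. Group levels follow from the mean and fold change, taking the mean as the average of equal groups. Per-kilobase levels use GENCODE M21 transcripts, matched by symbol for 13906 tested genes (97.4%) and all 10 variants. The adjustment was tested on simulated data. The variants, gene lists and rules were chosen with earlier results of these data known. Beyond the variants and Npm1, up to 3 called genes per list were named, or the 2 with the highest means where none was called. Alternatives were other filters, adjustments, centring, a length and GC trend, and a fold threshold.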

Additional observations from a re-analysis of the deposited data

How the results depend on the processing

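No variant gene was called under any of the 6 alternatives that could be run. Benjamini-Yekutieli adjustment and the fold threshold can only raise an adjusted p, so they could not have added a call. All 60 values stayed on the same side of the threshold, with adjusted p of at least 0.124. Of these, 2 changed sign (H2afv and H3f3a, both near 0, with the length and GC trend subtracted). With that trend subtracted H2afz had its highest log2 value, 0.18 (adjusted p = 0.144). The 614 calls over all genes (318 higher, 296 lower) became 230 (121 and 109) with Benjamini-Yekutieli adjustment and 21 (9 and 12) in a test against a fold of 1.2, and the trend left 210 higher calls. The 5 called list genes became 2 with Benjamini-Yekutieli adjustment (Ino80 and Srrt) and 0 against a fold of 1.2. With a mean of at least 50 they became 6 by the gain of Rad50 (log2 -0.30, adjusted p = 0.0468), and with the trend subtracted 6 by the gain of Mdc1 (-0.17, adjusted p = 0.0440) and Ncbp2 (0.25, adjusted p = 0.0385) and the loss of Cpsf1; these 3 gained genes were named after their values were seen. Npm1 remained called under all 6, with log2 values from -1.14 to -1.10. The length by principal transcript was chosen after seeing the data. No paired analysis was possible because the table holds no values per library. For the same reason, leaving out each replicate and a second count model were not run.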

Other observations

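Rows for H3f3a-ps1 and H3f3aos were low. Gm17275, which overlaps H3f3a on the opposite strand, had a mean of 221 normalized counts. The pseudogene H3f3a-ps1 had a mean of 16.7 normalized counts and a log2 fold change of 0.42 (unadjusted p = 0.540), and the antisense gene H3f3aos had a mean of 8.64 and a log2 fold change of -1.10 (unadjusted p = 0.236), in the authors' deposited table. The H2B family gene H2bfm had a mean of 9.39, and Hist1h1a 8.19, in the authors' deposited table, both under the filter.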
